A study of Mus musculus with 4 samples.

Results

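The Tdpoz genes described here are the 6 symbols Tdpoz1, Tdpoz2, Tdpoz3, Tdpoz4, Gm4858 and Gm4778, which lie in an interval of 1300 kb on mouse chromosome 3 (build mm10). They were taken by symbol, with no filter on expression, from the deposited tables of RefSeq and Ensembl transcript models, and are 6 of 29613 symbols in both tables together. The RefSeq table has rows for 5 of them, without Gm4778, and the Ensembl table for all 6. RefSeq (GRCm38.p6) now calls Gm4858 Tdpoz8 and Gm4778 Spopfm1. It annotates Gm4778 as a pseudogene, whereas GENCODE release M21 lists it as protein coding.

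The cells were MC1-ZE7, a mouse embryonic stem (ES) cell line of strain MC1 (129S6/SvEvTac) in which the fluorescent protein Emerald reports transcription of Zscan4. They grew without feeder cells on gelatin, in medium with serum and leukemia inhibitory factor, and were separated by fluorescence into an Emerald-positive high fraction (Em+) and an Emerald-negative fraction (Em-). Each fraction gave 2 libraries of total RNA depleted of ribosomal RNA, so the question is how the transcripts of Zscan4-reporting and non-reporting cells of a single line differ, when both carry the reporter. Whether the 2 libraries of a fraction stem from different cultures is not stated in the labels. P-values below therefore cover library-to-library spread, possibly technical.

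Tdpoz proteins are named for a TRAF (MATH) domain followed by a POZ (BTB) domain. Their relative SPOP uses the MATH domain to hold a substrate and the BTB domain to bind the scaffold CUL3, so that the substrate is marked with ubiquitin. Tdpoz transcripts are known from the mouse embryo at the 2-cell stage, when the embryo's own genome is first transcribed, and from the small, changing share of ES cells that transcribe 2-cell-stage genes such as Zscan4.

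The members resemble each other closely. Their annotated coding sequences were at least 78.9% identical between any pair and 73.7 to 74.6% identical to that of Spop. Tdpoz4 and Gm4858 were the nearest pair, with 902 of 957 aligned coding bases identical. Tdpoz1 and Tdpoz3 were 88.4% identical. In the RefSeq set of promoter windows (250 bases before to 50 bases after an annotated start, GRCm38.p6), 3 of the 6 members had entries. These are Tdpoz1, Tdpoz4 and Gm4858, which has 2 annotated starts. The first pair of windows is shown because the sequence before Tdpoz4 and before the second start of Gm4858 is nearly the same. Of 293 aligned bases 282 were identical (96.2%), and capitals mark their longest identical run, of 130 bases. They lie at chr3:93073271-93073570 (plus strand) and chr3:93796148-93796447 (plus strand). The RefSeq model of Tdpoz4 is coding sequence throughout, so its window is placed on the start codon, which it contains, and need not hold the 5′ end of the RNA. The annotated second start of Gm4858 falls on the matching ATG, so that window need not hold the 5′ end either.
Gm4858 second start: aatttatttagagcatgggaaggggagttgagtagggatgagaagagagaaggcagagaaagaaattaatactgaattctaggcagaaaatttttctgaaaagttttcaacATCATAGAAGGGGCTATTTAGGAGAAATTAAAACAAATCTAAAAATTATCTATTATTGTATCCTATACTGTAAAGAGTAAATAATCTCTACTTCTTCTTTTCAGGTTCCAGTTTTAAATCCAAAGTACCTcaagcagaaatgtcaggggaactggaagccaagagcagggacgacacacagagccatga
Tdpoz4: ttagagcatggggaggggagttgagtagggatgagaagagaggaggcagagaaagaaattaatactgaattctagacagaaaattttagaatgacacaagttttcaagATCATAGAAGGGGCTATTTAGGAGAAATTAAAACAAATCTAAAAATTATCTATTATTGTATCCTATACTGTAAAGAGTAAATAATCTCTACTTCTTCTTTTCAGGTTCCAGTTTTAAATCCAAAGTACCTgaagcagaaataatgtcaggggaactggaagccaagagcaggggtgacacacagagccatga

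The second pair joins the highest member with the lowest. The window at the first start of Gm4858, at chr3:93068573-93068872 (plus strand), matched that of Tdpoz1, at chr3:93676234-93676533 (minus strand), at 233 of 266 aligned bases (87.6%). Capitals mark their longest identical run, of 39 bases.
Gm4858 first start: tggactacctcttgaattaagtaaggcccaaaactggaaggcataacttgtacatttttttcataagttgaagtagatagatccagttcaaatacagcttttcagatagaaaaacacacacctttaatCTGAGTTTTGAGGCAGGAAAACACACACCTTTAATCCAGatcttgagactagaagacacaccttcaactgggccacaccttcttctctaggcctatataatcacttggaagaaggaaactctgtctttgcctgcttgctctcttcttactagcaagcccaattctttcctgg
Tdpoz1: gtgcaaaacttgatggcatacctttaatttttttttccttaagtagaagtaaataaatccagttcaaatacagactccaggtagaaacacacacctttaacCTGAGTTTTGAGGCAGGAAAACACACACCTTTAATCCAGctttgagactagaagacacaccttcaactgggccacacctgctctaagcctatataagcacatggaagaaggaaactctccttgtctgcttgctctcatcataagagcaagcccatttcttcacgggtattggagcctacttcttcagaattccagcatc

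On either strand, none of the 4 windows held the TATA element written TATAAA, which 13.62% of 32851 RefSeq windows hold. None held GATTNAATC, the core of a sequence described for the homeobox factor Dux, which 0.27% of windows hold. The variant TATATAA, searched after the windows had been seen, stood in both windows of the second pair and in 3.24% of all windows.

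Sequencing depth was similar in all libraries. The RefSeq table held 17927765 and 16468218 counts in the Em+ libraries, against 18364973 and 18953217 in the Em- libraries. Zscan4c, Zscan4d and Zscan4f together reached 32.9 and 27.9 FPKM (fragments per kilobase of transcript, scaled to the library's reads) in the Em+ libraries against 0.399 and 0.405 in the Em- libraries. The description field, unlike the title and cell type fields, names the opposite fraction in all 4 samples. The ES cell list was high in both fractions (summed 683 to 891 FPKM in Em+, 940 to 950 in Em-), with Nanog the 1 of 6 genes called, as higher in Em+. Log2 fold changes of the others (Em+ over Em-) were 0.21 for Klf4, -0.35 for Sox2, -0.33 for Pou5f1, -0.25 for Esrrb and -0.04 for Zfp42. Summed levels were 2.44 to 2.88 FPKM in Em+ and 2.64 to 2.67 in Em- for 5 primitive endoderm genes, and 2.68 to 2.98 in Em+ and 3.58 to 3.79 in Em- for 5 trophoblast genes. They were 0.435 to 0.536 in Em+ and 0.432 to 0.496 in Em- for 3 mesoderm genes, and 1.48 to 1.86 in Em+ and 1.09 to 1.11 in Em- for 5 oocyte genes, and no gene of these lists was called. Sox7, Cdx2 and the oocyte gene Bmp15 stayed under 0.1 FPKM in every library. The fibroblast list (3 of 5 genes in the table) summed to 5.07 to 6.16 FPKM in Em+ and 3.23 to 3.47 in Em-, and Thy1 rose in it. Rn45s, ribosomal RNA precursor, took 7.95% of the counts of Em+ replicate 2 and 3.93 to 4.33% elsewhere. The part of Thy1-expressing cells or of Rn45s in the values below was not tested.

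All 6 Tdpoz genes had reads in both Em+ libraries and no more than 6 reads in any Em- library. By the quasi-likelihood test of edgeR, adjusted over all symbols by Benjamini-Hochberg, 4 of the 5 RefSeq members and 5 of the 6 Ensembl members were higher in Em+ cells at an adjusted p under 0.05, and Tdpoz1 was not called in either table. Over all symbols, 4.48% of 19797 in the RefSeq table and 4.03% of 28131 in the Ensembl table were called higher, and 1.47% and 1.16% lower. The median log2 fold change (Em+ over Em-) was 6.50 over the RefSeq members against 0.03 over all RefSeq symbols, and 7.06 over the Ensembl members against 0.07 over all Ensembl symbols. With Tdpoz1 and Tdpoz3, at 0 in both Em- libraries, set at their ratio to a floor of 3 Em- counts, the medians were 4.41 and 5.44. That ratio takes the Em+ counts as exact and is not a lower limit of the fold. Together the Ensembl rows summed to 25.9 and 23.0 FPKM in Em+ libraries, against 0.125 and 0.133 in Em- libraries, a 189.4-fold ratio of the means. Whether a higher share of cells or more RNA per cell made the difference cannot be told apart in bulk RNA.

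**Figure D1:**
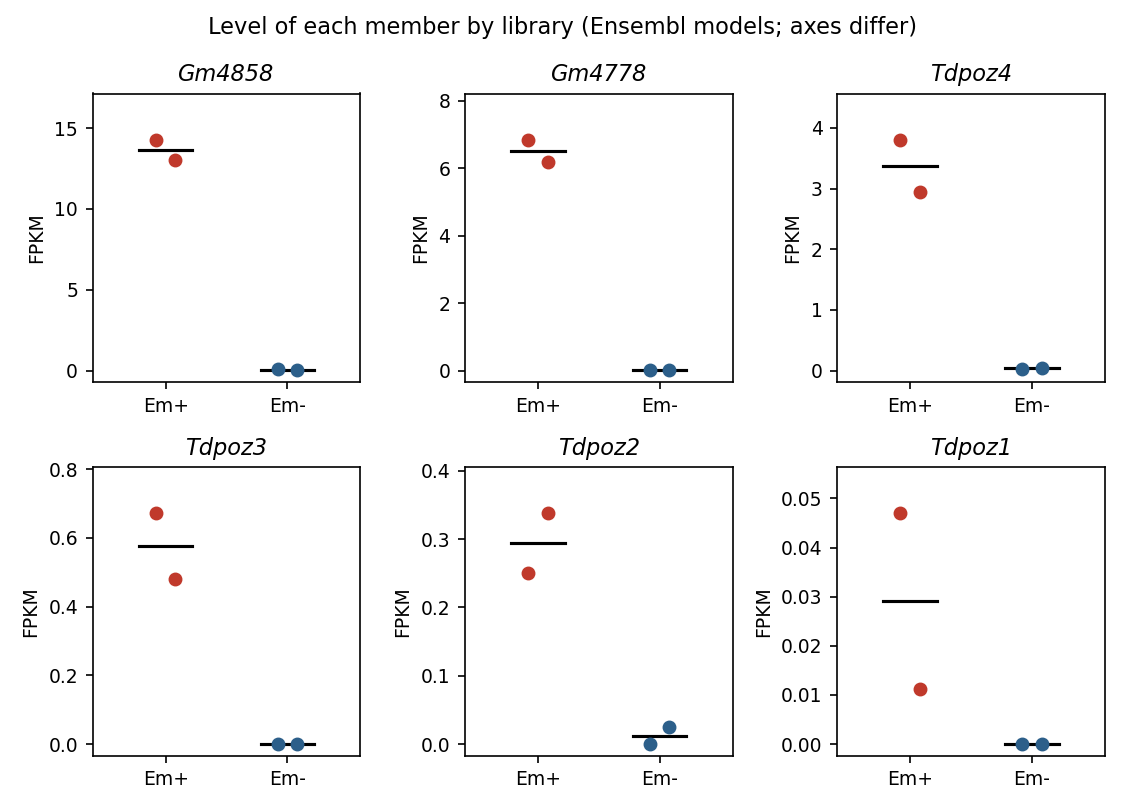
FPKM of the 6 members in each library, from the Ensembl table; points are libraries, bars the mean of 2, and each vertical axis has its own scale. Both Em+ points lie above both Em- points in each panel, from 14.28 and 13.03 FPKM for Gm4858 down to 0.047 and 0.0113 for Tdpoz1, which was not called. The share of all symbols separated in this way was not computed.

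On the per-length FPKM scale of the Ensembl table, the order in Em+ cells was Gm4858, Gm4778, Tdpoz4, Tdpoz3, Tdpoz2 and Tdpoz1. No range of the 2 Em+ libraries overlapped that of the next member in this order. Gm4858 made up 55.1 and 56.7% of the summed level in Em+ replicates 1 and 2, Gm4778 26.4 and 26.9%, and Tdpoz4 14.7 and 12.8%. The other 3 members together are the small remainder, with Tdpoz3 at 2.60 and 2.09%. In Em- cells the members rested on 0 to 2 Ensembl reads a library, and no order among them can be read.

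Gm4858 (Tdpoz8), which encodes a protein of the family, was the highest member. Its RefSeq rows, at chr3:93068823-93075505 on the plus strand, had 705 and 638 counts in Em+ replicates 1 and 2, against 3 and 6 in Em- replicates 1 and 2. Per length this was 9.74 and 8.49 FPKM in Em+ libraries against 0.042 and 0.08 in Em- libraries. The fractions were far apart, and the Em+ libraries differed little. In CPM, which are counts set against the scaled library total in edgeR, the level was 38.5 ± 0.257 in Em+ and 0.243 ± 0.108 in Em- cells (SD, n = 2 each). The log2 fold change was 7.26 with a standard error (SE) of 0.20 (edgeR's adjusted p = 2.91e-08).

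Nearly all of these reads fell in the gene's second model, whose window was printed first. This model of 1985 bases had 685 and 630 counts in Em+ libraries, against 3 and 6 in Em- libraries. The spliced model of 1810 bases from the first start had 20 and 8 counts in Em+ libraries and 0 in both Em- libraries. The models overlap, and how reads were divided between them is not given in the sources used here. The Ensembl table holds a shorter model of 735 bases at chr3:93073567-93074633. It had 384 and 363 counts in Em+ libraries, against 2 and 1 in Em- libraries, a ratio of scaled counts of 264.9 (exact 95% binomial interval 90.29 to 1287). Its log2 fold change was 7.93 (SE 0.29, edgeR's adjusted p = 3.96e-11).

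Gm4778 (Spopfm1), named by RefSeq as a Spop family member, was the next in level and has its values from the Ensembl table. At chr3:94264036-94266784 on the plus strand it had 278 and 259 counts in Em+ libraries, against 1 and 1 in Em- libraries. In FPKM this was 6.84 and 6.18 in Em+ libraries, against 0.025 and 0.0243 in Em- libraries. The 2 libraries of each fraction lay close together. Its log2 fold change was 7.98 (SE 0.32, edgeR's adjusted p = 1.32e-10), and the ratio of scaled counts was 285.6 (interval 78.69 to 2365). The model of 1098 bases carried 251 and 244 of the Em+ counts, and a model of 1241 bases that starts farther upstream carried 27 and 15.

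Tdpoz4, the near copy of Gm4858, followed in level. It lies at chr3:93796398-93797510 on the plus strand and had 155 and 124 counts in Em+ libraries, against 1 and 2 in Em- libraries. Its level was 3.81 and 2.94 FPKM in Em+ libraries, against 0.025 and 0.048 in Em- libraries. Both Em+ libraries were far above both Em- libraries, with replicate 1 the higher of the Em+ pair. The log2 fold change was 6.50 (SE 0.34, edgeR's adjusted p = 2.35e-06), and the ratio of scaled counts was 98.29 (interval 33.29 to 479.5).

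Tdpoz3, at chr3:93826020-93827117 on the plus strand, had 27 and 20 counts in Em+ libraries and 0 in both Em- libraries. Its level was 0.672 and 0.480 FPKM in Em+ libraries, and it was listed at 0 in both Em- libraries. With 3 counts for the 2 Em- libraries together as the floor, its scaled counts in Em+ cells, taken as exact, were 16.56-fold above that floor. The test called it higher (edgeR's adjusted p = 0.00207 in the RefSeq table, 0.000197 in the Ensembl table). In the Ensembl table the call was lost with limma on log2(FPKM + 1) (adjusted p = 0.0702).

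Tdpoz2, at chr3:93651542-93652686 on the minus strand, had 11 and 14 counts in Em+ libraries, against 0 and 1 in Em- libraries. These were 0.263 and 0.323 FPKM in Em+ libraries, against 0 and 0.023 in Em- libraries. The groups did not overlap, and a single read stood for the Em- group. Its log2 fold change was 4.41 (SE 0.88, edgeR's adjusted p = 0.0189), and the ratio of scaled counts was 26.42 (interval 4.325 to 1085). Leaving out Em- replicate 1 gave a log2 fold change of 3.59, and leaving out Em- replicate 2 gave 6.68. The call was lost with DESeq2 (adjusted p = 0.0902) and, in the Ensembl table, without Em+ replicate 2 (edgeR's adjusted p = 0.0996) or Em- replicate 1 (edgeR's adjusted p = 0.0589). It was also lost there with DESeq2 (adjusted p = 0.131) and with limma on log2(FPKM + 1) (adjusted p = 0.125) and log2(FPKM + 0.1) (adjusted p = 0.103). Over all alternatives its adjusted p ranged between 0.000364 and 0.0902 in the RefSeq table and between 0.00154 and 0.131 in the Ensembl table.

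Tdpoz1, at chr3:93669333-93676283 on the minus strand, had 4 and 1 counts in Em+ libraries and 0 in both Em- libraries. This was 0.0475 and 0.0114 FPKM in Em+ libraries. Against the same floor of 3 counts for both Em- libraries together, its 5 counts over the Em+ libraries gave a ratio of 1.76 after scaling. This ratio takes the 5 counts as exact and is not a lower limit of the fold. The difference did not pass the test (edgeR's adjusted p = 0.195).

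The ratio intervals of Gm4858, Gm4778, Tdpoz4 and Tdpoz2 overlap each other. Differences in fold between members were not tested. The 2 other deposited tables, on known-gene and ENCODE models, gave the same calls. They hold deposited counts of Em- replicate 1, which the RefSeq and Ensembl tables lack, and these equalled the computed ones for every member model shared between tables.

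**Figure D2:**
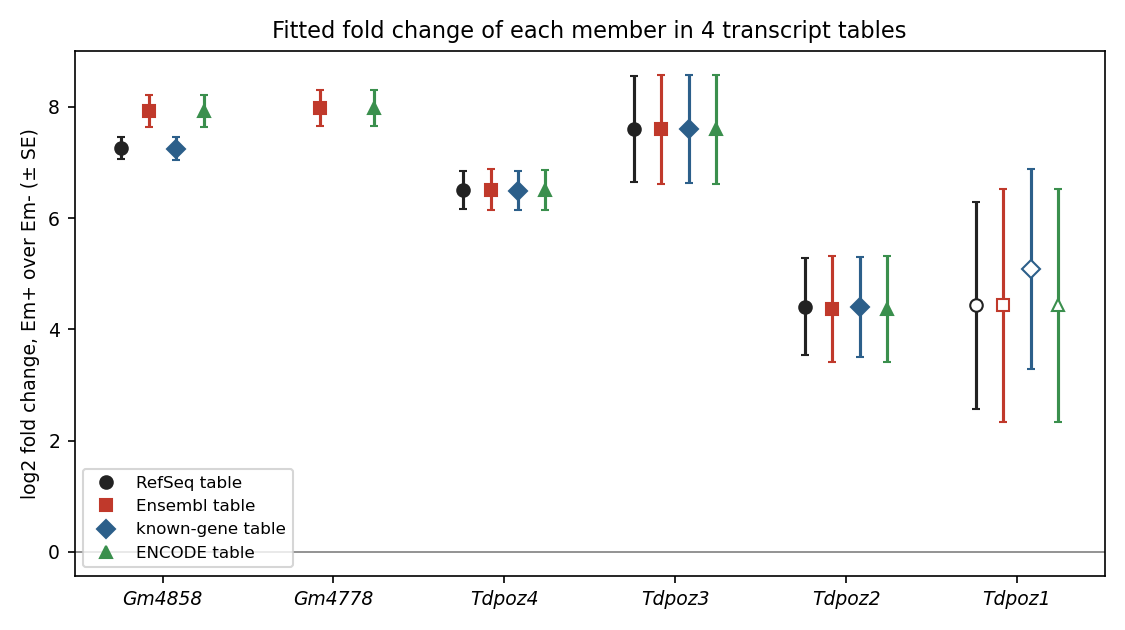
Fitted log2 fold change (Em+ over Em-) of each member in the 4 transcript tables, with bars of ± 1 SE; filled symbols have an adjusted p under 0.05 in edgeR's quasi-likelihood test. Members with few reads have the longest bars, and fitted values of Tdpoz3 and Tdpoz1, at 0 in both Em- libraries, depend on the prior count.

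Because the members resemble each other and further genes in sequence, reads may match more than 1 gene. How such reads were assigned is not given in the sources used here. Of all runs of 50 bases in the transcripts of Tdpoz3, 66.2% also occur in an annotated transcript of another gene, in each case Gm4982. The share was 48.3% for Tdpoz2, 44.4% for Tdpoz1, 41.2% for Tdpoz4, 15.1% for Gm4858 and 10.3% for Gm4778. For runs of 100 bases it was 46.7% for Tdpoz3, 22.1% for Tdpoz2, 23.8% for Tdpoz1, 11.6% for Tdpoz4, 6.6% for Gm4858 and 0.0% for Gm4778. The 2 members of highest level shared least, and Tdpoz1, Tdpoz2 and Tdpoz3 are uncertain as single entries. So is Tdpoz4, of whose 100-base runs 11.1% also occur in Gm4858, the highest member. At 50 bases the closest match of Tdpoz4 was Gm5541, with 31.0% of its runs, and that of Tdpoz1 was Gm9117, with 43.9%. The match Gm4982, like Gm5773 named after its sequence match was seen, itself had 2 Ensembl counts over the Em+ libraries and 0 over the Em- libraries. Gm5773, the closest match of Tdpoz2, had 3 over the Em+ and 0 over the Em- libraries. Gm9125 (Tdpoz9), whose coding sequence is 98.5% identical to that of Tdpoz1, was not analysed here. The part of shared reads in the members' counts was not tested.

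**Figure D3:**
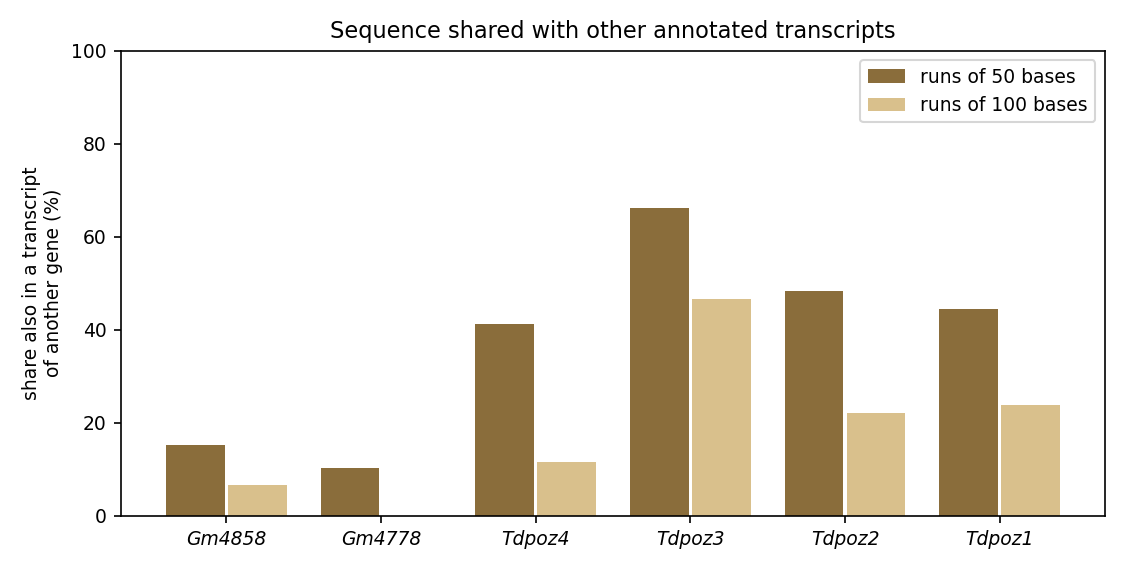
Share of all runs of 50 or 100 bases in each member's annotated transcripts (GENCODE release M21) that also occur in an annotated transcript of another gene, in percent. The bars run from 66.2% of 50-base runs for Tdpoz3 to 10.3% for Gm4778, which shares no run of 100 bases.

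The 6 genes span 1193.2 kb, with other genes between them. Tdpoz1 and Tdpoz2 lie 16.7 kb apart and Tdpoz3 and Tdpoz4 28.5 kb apart, while Gm4858 is 576.9 kb from its nearest fellow member and Gm4778 436.9 kb. In the interval of 1300 kb that holds them, 1 of the 9 other RefSeq symbols was called higher and none lower, with a median log2 fold change of 0.93. The background in that table was 5.95% called in either direction and a median of 0.03. With no adjustment for multiple tests, 5 of the 9 were higher and 0 lower at edgeR's p under 0.05. The share over all symbols at that unadjusted threshold was not computed, so this count has no background. Of 16 symbols in the Ensembl table, 3 were called higher and none lower, with a median of 1.06, against 5.19% and 0.07 over all symbols. They include Gm10696 (also among the 9 RefSeq symbols), Gm4982, Gm5773 and Gm9141, which match members in sequence. These had log2 fold changes of 3.21 to 3.87 on 2 to 17 Em+ reads. The part of the members' reads in their counts was not tested. Over the 11 Ensembl neighbours with reads in both fractions the median was 0.85.

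The called RefSeq neighbour was Crct1, a gene of the skin cornification cluster, whose genes border the members and also lie between Gm4858 and Tdpoz2. It had 9 and 9 counts in Em+ libraries, against 1 and 0 in Em- libraries (log2 fold change 3.94, edgeR's adjusted p = 0.0412). No RefSeq neighbour was called with DESeq2 or when Em+ replicate 2 was left out. Its Ensembl row is 57.9 kb from that of Gm4858, and had a log2 fold change of 4.42 (edgeR's adjusted p = 0.00939). Gm10696 (Spopfm2), whose coding sequence is 92.9% identical to that of Gm4778, had 7 and 9 RefSeq counts in Em+ libraries against 0 and 1 in Em- libraries. Its log2 fold change of 3.77 missed the threshold in the RefSeq table (edgeR's adjusted p = 0.0556), and that of 3.87 in the Ensembl table passed it (edgeR's adjusted p = 0.0443). Hrnr, which encodes the epidermal protein hornerin, was called in the Ensembl table (1.18, edgeR's adjusted p = 0.0387) but not in the RefSeq table (1.15, edgeR's adjusted p = 0.102). Its Ensembl counts of 153 in Em+ replicate 1 and 379 in Em+ replicate 2 stood against 119 and 134 in Em- replicates 1 and 2, so replicate 2 carried most of the difference. S100a10, named after its values were seen as the most abundant neighbour, encodes a binding partner of annexin. It had 72.5 and 54.5 RefSeq FPKM in Em+ libraries, against 71.4 and 69.5 in Em- libraries.

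**Figure D4:**
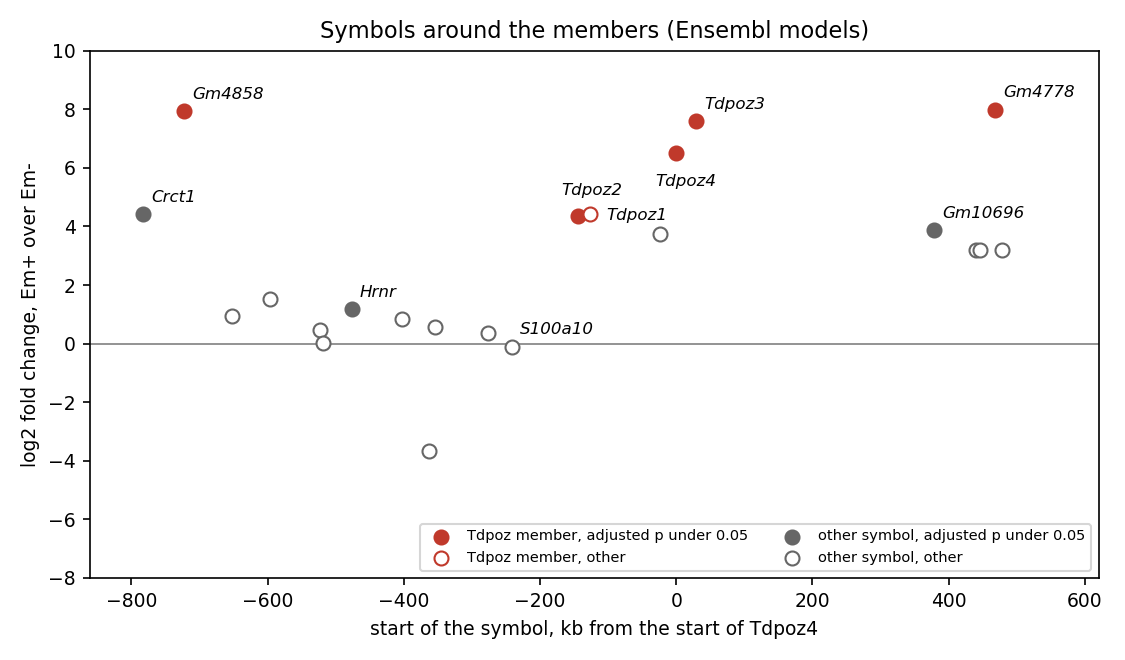
Fitted log2 fold change (Em+ over Em-) in the Ensembl table of the 6 members and 16 other symbols, against the distance of each symbol's start from that of Tdpoz4 in kb; filled points have an adjusted p under 0.05. The 5 called members lie between 4.36 and 7.98, and S100a10, between Gm4858 and Tdpoz2, lies at -0.10. The lowest point, Gm5278 at -3.66 (named after its value was seen), rests on 0 reads in Em+ and 3 in Em- libraries.

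Genes of the SPOP-CUL3 ligase, the enzyme that the relative SPOP serves, moved far less than the members. Of 12 genes on this list, 2 were called higher and none lower in the RefSeq table, against 5.95% of all symbols called in either direction, and the median log2 fold change was -0.03. Cul3, the scaffold, had 39.7 and 35.1 FPKM in Em+ libraries, against 31.4 and 30.9 in Em- libraries (log2 fold change 0.37, edgeR's adjusted p = 0.0208). Cand1, which exchanges the substrate adaptors of cullins, had 35.0 and 29.8 FPKM in Em+ libraries, against 25.7 and 26.1 in Em- libraries (0.42, edgeR's adjusted p = 0.0116). Neither call held when either Em- library was left out, under scaling by the library totals behind FPKM or in either limma fit. Calls on this list rose without Em+ replicate 1, as they did over all symbols. The log2 fold changes of Nedd8 (-0.17), Cops5 (-0.17) and Uba3 (-0.10), the most abundant of the others, did not pass.

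Spop itself had 965 and 842 counts in Em+ libraries, against 1040 and 1093 in Em- libraries. Its level was 8.43 ± 1.02 FPKM in Em+ and 10.1 ± 0.0714 in Em- cells (SD, n = 2 each), and it did not pass the test (log2 fold change -0.16, edgeR's adjusted p = 0.275). Its paralogue Spopl had 6.82 and 7.32 FPKM in Em+ libraries, against 5.98 and 6.15 in Em- libraries (0.33, edgeR's adjusted p = 0.105). On the RefSeq FPKM scale, the level of Gm4858 in Em+ libraries (9.74 and 8.49) overlapped that of Spop in the same libraries (9.15 and 7.71). In Em- libraries Gm4858 was at 0.042 and 0.08 FPKM, far below Spop.

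Transcripts of 20 proteins reported as SPOP substrates, mostly from work on human proteins, had a median log2 fold change of 0.01. Of these, 2 were called higher and none lower, against 5.95% of all RefSeq symbols called in either direction and a median of 0.03. Gli3, a transcription factor of Hedgehog signalling, was at 0.824 and 0.911 FPKM in Em+ libraries, against 0.644 and 0.603 in Em- libraries (0.59, edgeR's adjusted p = 0.0410). Nanog, a pluripotency factor, was at 132 and 99.7 FPKM in Em+ libraries, against 90.0 and 94.7 in Em- libraries (0.42, edgeR's adjusted p = 0.0291). No gene of the list passed under library totals or in either limma fit, and 1 passed with DESeq2. Without either Em+ library there were more calls on this list, as there were over all symbols. Caprin1 (-0.14), Dek (-0.14) and Cdc20 (-0.02), the most abundant of the rest, did not pass.

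Among 9 measured genes of other MATH domain proteins, 1 was called higher and none lower, with a median log2 fold change of 0.04. The background for this list and the next was 5.95% of all RefSeq symbols called in either direction and a median of 0.03. The called gene was Traf1, an adaptor of tumour necrosis factor receptor signalling. It had 2.53 and 3.27 FPKM in Em+ libraries, against 0.491 and 0.518 in Em- libraries (2.63, edgeR's adjusted p = 6.77e-05). Usp7 (0.04), Trim37 (-0.28) and Traf4 (-0.28) did not pass. Calls on this list rose when either Em+ library was left out, as they did over all symbols. Of 20 other BTB adaptors of CUL3, edgeR called none and DESeq2 called 1, and the median was -0.09. At edgeR's unadjusted p under 0.05, 2 were higher and 1 lower, with no share over all symbols computed at that threshold. Klhl13 (0.35, edgeR's adjusted p = 0.0641), Klhl12 (-0.10) and Klhl9 (-0.11) were the most abundant. Here too, calls rose without either Em+ library, as over all symbols. D3Ertd751e, listed with the Spop-like symbols but annotated far away on chromosome 3, did not pass (0.34, edgeR's adjusted p = 0.177).

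The RefSeq symbols whose level over the 4 libraries was nearest to the summed members were Gm2022, Zscan4a, Gm12794, Zfp352 and Usp17lc. Their distances (Euclidean, of log2(FPKM + 0.1), over 4 libraries) were 0.27, 0.34, 0.58, 0.70 and 0.72. The summed RefSeq members had 14.5 and 12.2 FPKM in Em+ libraries, against 0.067 and 0.151 in Em- libraries. Gm2022, on chromosome 12, had a log2 fold change of 7.05 (edgeR's adjusted p = 5.32e-08). Zscan4a, of the cluster that the reporter follows, had 14.4 and 13.8 FPKM in Em+ libraries, against 0.037 and 0.142 in Em- libraries. Usp17lc, of a family of deubiquitinating enzymes, had 11.1 and 11.9 FPKM in Em+ libraries, against 0.032 and 0.078 in Em- libraries. None of these 5 lies on chromosome 3.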

How the data were processed

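The authors deposited 4 transcript tables (RefSeq, known-gene, ENCODE and Ensembl models), which per the file headers hold a raw count and an FPKM per library. The submitters' processing notes name Bowtie2 and mm10. Counting program, strand use and handling of multiply matching reads: not given in the sources used here. Groups follow the sample titles. In the deposited RefSeq and Ensembl tables every count of Em- replicate 1 is 0, so its counts were computed as FPKM (plus 0.0005, for truncation) × length × library total. Over 13036 transcripts, 99.48% equalled the known-gene counts and 99.94% were within 1 read. RefSeq gene rows held 43.4 to 51.1% of the reads behind FPKM. Counts and FPKM were summed per symbol.

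The main test was edgeR 4.0.16 (R 4.3.3, quasi-likelihood, TMM, two-sided, no covariate, no filter). Its p-values were adjusted by Benjamini-Hochberg over all symbols, with a threshold of 0.05. The test was also run on simulated data. There, changes were placed only in genes with higher mean counts than Tdpoz1, Tdpoz2 and Tdpoz3, so these members were not covered. The common biological coefficient of variation was 0.0762. Folds against groups at 0 use a floor of 3 counts over the group. Floors cover counting error in the Em- group only, with the Em+ counts taken as exact. The 95% intervals cover counting error only. Alternatives used DESeq2 1.42.0 and limma 3.58.1. Members, gene lists and tests were chosen with earlier results of these data known. Named genes were the members, further Tdpoz or Spop-like symbols, called neighbours, the called genes of each list with its 3 most abundant others, and the 5 symbols nearest in level. Alignments used Biopython 1.88.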

Additional observations from a re-analysis of the deposited data

How the results depend on the processing

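The 4 RefSeq calls stood at 4 when any library was left out, under RLE scaling, under library totals and with the replicate block, and at 3 with DESeq2, which did not call Tdpoz2. The 5 Ensembl calls ranged from 4 to 5 when a library was left out. A filter on a mean FPKM of at least 1 left 2 RefSeq and 3 Ensembl members, all called, and limma on log2(FPKM + 1) called 3 Ensembl members. Every member's fold change kept its direction in each alternative that gave a value. The mean summed FPKM in Em+ cells was 13.38 in the RefSeq and 24.44 in the Ensembl table, which adds Gm4778 and has a shorter Gm4858.

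Over all RefSeq symbols, 887 were higher and 291 lower. Library totals gave 532 higher and 49 lower and moved the median log2 fold change to -0.074 from 0.029, and higher calls to 91.6% of calls from 75.3%. The filter gave 460 and 99, limma on log2(FPKM + 1) 266 and 11, limma on log2(FPKM + 0.1) 282 and 13, and the replicate block 1685 and 862. Leaving out a library gave 695 to 2628 higher and 40 to 3144 lower, both maxima without Em+ replicate 1. A lone library left in a group is assumed to vary like the other group.

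Calls on the lists depended on the setting, as did those over all symbols given above, and the cause was not tested. The SPOP-CUL3 list (2 calls) had 0 under library totals and both limma fits, and 0 to 9 with a library left out. The substrates (2) had 0 under library totals and both limma fits, 1 with the filter and with DESeq2, 5 with the replicate block, and 2 to 12 with a library left out. Other MATH genes (1) had 2 with the block and in the Ensembl, known-gene and ENCODE tables, and 1 to 6 with a library left out. BTB adaptors (0) had 1 with the filter, filterByExpr, DESeq2 and the Ensembl and ENCODE tables, 2 with the block, and 0 to 8 with a library left out. Further Spop-like symbols (0) had 2 with the block, 1 in the Ensembl table, and 0 to 3 with a library left out. Neighbours (1) had 0 with either filter and DESeq2, 5 with the block, 3 in the Ensembl and 2 in the ENCODE table, and 0 to 7 with a library left out.

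Whether same-numbered libraries are paired is not stated in the labels. Their deviations from the group means had a correlation of 0.003 over 12050 genes. From 2 libraries a group, this value cannot show whether they were paired. No member's call changed with the block. With 2 libraries a group and 0 to 9 Em- reads a member over the group, folds are imprecise.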

Other observations

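Traf5 and Klhl13 passed in the Ensembl table but not in the RefSeq table, and are named here after their values were seen. Traf5, another adaptor of tumour necrosis factor receptor signalling, had 25 and 30 Ensembl counts in Em+ libraries, against 12 and 11 in Em- libraries (log2 fold change 1.34, edgeR's adjusted p = 0.0475). Klhl13, a BTB adaptor, had 169 and 124 Ensembl FPKM in Em+ libraries, against 121 and 124 in Em- libraries (0.35, edgeR's adjusted p = 0.0497), so that Em+ replicate 2 lay at the level of the Em- libraries.

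The known-gene table lists a second model of Tdpoz1, of 1098 coding bases, with 2 and 1 counts in Em+ libraries and 0 in both Em- libraries. Both models together gave 6 and 2 counts in Em+ libraries, and the difference did not pass the test there either (edgeR's adjusted p = 0.145).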
